A study of Homo sapiens with 12 samples.

Results

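MEAF6 encodes a small subunit shared by several histone acetyltransferase complexes, and the genes described here are MEAF6 and 9 partners whose products assemble with it. The partners are the acetyltransferases KAT5 and KAT7, the scaffolds JADE1, JADE2, JADE3, BRPF1 and BRD1, and the reader subunits ING4 and ING5. Members were found by matching these symbols to the gene identifiers of the expression table, which gave 10 genes of the 63568 in it. MEAF6 was chosen on its measured values in these libraries, because its change after BRG1 depletion was larger at 144 h than at 72 h, so its change is described without a test. The partners were chosen as members of its complexes, and the question was whether they share this change.

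The cells were LNCaP, an androgen-responsive line derived from a prostate cancer lymph node metastasis. They were transfected with a non-targeting siRNA pool (si-NT) or with 1 of 2 siRNAs against SMARCA4, the gene that encodes BRG1, the catalytic ATPase of the SWI/SNF chromatin remodelling complex. RNA was collected at 72 h, or at 144 h after the cells had been split and transfected again at 72 h. Each siRNA and time point had 2 libraries, so each time point held 2 si-NT libraries and 4 BRG1 depleted libraries, 12 in all. The expression table numbers the siRNAs 2 and 3, and these numbers are used here, since the labels number them 1 and 2 and do not say which is which. For 1 library at 72 h, the title and the treatment label disagree on the siRNA number. Nothing states that replicates came from separate cultures, so p-values measure only the spread between these libraries.

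MYST family acetyltransferases transfer acetyl groups to lysines of histone tails, a mark of open and transcribed chromatin. MEAF6 is a small common subunit of the complexes of KAT5, KAT6A, KAT6B and KAT7. In these a scaffold protein decides which histone is modified, and an ING protein reads methylated histone H3. KAT5 (TIP60) is the enzyme of the TIP60 complex, which acts in transcription and DNA repair. KAT7 (HBO1) pairs with a JADE or BRPF scaffold and acts in transcription and in the licensing of replication origins. KAT6A (MOZ) and KAT6B (MORF) pair with a BRPF scaffold, BRD1 being the product of the BRPF2 gene.

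MEAF6 lies on the minus strand of chromosome 1 at 37955594 to 37980367 (GRCh37). The 250 bases upstream of its start, and of the start of ZC3H12A, the gene next to it, are shown because both genes were higher in BRG1 depleted cells. They are read 5′ to 3′ on each gene's own strand, from the RefSeq promoter table matched to GRCh37. Capitals mark 2 motifs, the GC box GGGCGG and the NRF1 core GCGCANGCG, each searched on both strands.
MEAF6 upstream region, chr1:37980368-37980617, minus strand: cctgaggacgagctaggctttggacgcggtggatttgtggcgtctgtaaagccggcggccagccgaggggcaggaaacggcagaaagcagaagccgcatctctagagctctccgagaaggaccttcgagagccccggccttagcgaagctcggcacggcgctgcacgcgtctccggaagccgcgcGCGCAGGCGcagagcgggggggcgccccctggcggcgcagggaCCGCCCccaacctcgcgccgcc
ZC3H12A upstream region, chr1:37939931-37940180, plus strand: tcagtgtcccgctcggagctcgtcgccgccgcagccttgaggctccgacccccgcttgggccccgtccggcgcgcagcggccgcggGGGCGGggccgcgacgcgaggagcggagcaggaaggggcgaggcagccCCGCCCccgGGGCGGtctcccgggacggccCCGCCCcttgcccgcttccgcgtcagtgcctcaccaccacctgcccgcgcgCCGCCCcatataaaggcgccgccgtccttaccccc
Both stretches are rich in G and C, at 70.8% for MEAF6 and 78.8% for ZC3H12A, with 32 and 38 CpG dinucleotides. The MEAF6 stretch holds 1 GC box and 1 NRF1 core, which do not overlap. The ZC3H12A stretch holds 5 GC boxes and no NRF1 core. Of the 34943 RefSeq promoters searched in the same way, 42.5% hold a GC box and 6.5% an NRF1 core. Neither stretch holds the ETS core CCGGAAGT (3.39% of promoters), the E-box CACGTG (6.32%), the CRE TGACGTCA (1.63%) or the AP-1 motif TGANTCA (6.59%).

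The unit throughout is TPM (a transcript's share of all transcripts in its library, on a fixed total), which is corrected for gene length, so that levels of different genes can be compared. SMARCA4 itself was at 73.44 to 106.59 TPM in the si-NT libraries and at 11.42 to 21.7 TPM in the BRG1 depleted libraries. All 6 luminal markers examined, KLK3 and KRT8 among them, were present in every library at 69.69 to 841.47 TPM, while of the fibroblast and leukocyte markers COL1A2 and CD3E were at 0 in all 12, DCN and PTPRC reached 0.02 and 0.01 TPM at most, and COL1A1 (3.1 to 9.11 TPM) and CD68 (0.23 to 0.87 TPM) were present in every library. The ERCC spike-ins took 0.805% to 1.97% of the total and 14706 to 15355 genes reached 1 TPM in a library. TPM keeps no read depth, so depth is unknown and precision rests on the replicates.

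In si-NT cells MEAF6 had the highest level of the 10 genes, with a mean of 79.03 ± 13.6 TPM (SD, n = 4, both time points). KAT5 followed at 39.16 ± 3.41 TPM and ING4 at 33.48 ± 7.41 TPM, and the ranges of these overlapped. KAT7 stood at 20.63 ± 0.546, ING5 at 16.51 ± 1.72 and JADE1 at 11.89 ± 0.513 TPM, with no overlap between neighbours in this order. BRD1 at 10.42 ± 0.648 and BRPF1 at 10.13 ± 0.562 TPM overlapped each other. JADE2 was lower at 7.275 ± 1.13 TPM, and JADE3 was near 0 with a mean of 0.2025 ± 0.266 TPM. Of the 5 scaffolds among the members, JADE1 had the highest level and JADE3 was close to undetected.

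MEAF6 mRNA was higher in every BRG1 depleted library than in any si-NT library, and the gap was wider at 144 h. At 72 h the si-NT libraries held 89.14 and 92.36 TPM of MEAF6, the siRNA 2 libraries 161.78 and 181.57, and the siRNA 3 libraries 178.85 and 163.08. At 144 h the si-NT libraries held 68.78 and 65.84 TPM, the siRNA 2 libraries 259.11 and 260.45, and the siRNA 3 libraries 264.54 and 250.13. The 4 groups did not overlap, and si-NT cells at 144 h had the lowest values while BRG1 depleted cells at 144 h had the highest.

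The mean of MEAF6 in BRG1 depleted cells was 1.89 times that in si-NT cells at 72 h (171.3 ± 10.34 against 90.75 ± 2.277 TPM) and 3.84 times at 144 h (258.6 ± 6.075 against 67.31 ± 2.079 TPM; SD, n = 4 and n = 2). On the log2(TPM + 1) scale the difference was 0.91 at 72 h and 1.93 at 144 h. The wider gap at 144 h had parts on both sides, since MEAF6 was higher by 0.59 in BRG1 depleted cells at 144 h than at 72 h and lower in si-NT cells (-0.43). Among the 16337 genes that reached 1 TPM in 2 or more libraries, MEAF6 had the 150th highest log2 fold change at 72 h, the 74th at 144 h and the 311th highest difference between the changes at the 2 time points. In bulk RNA a change in the number of cells and a change in RNA per cell cannot be told apart. The summed neuroendocrine markers CHGA and SYP were at 0.39 to 0.75 TPM in si-NT and 0.96 to 1.42 TPM in BRG1 depleted libraries, with CHGA at 0 in 8 of 12 libraries, and their part in the result was not tested.

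Both siRNAs gave nearly the same MEAF6 level, and this comparison was not used to choose the gene. In a limma fit with 6 groups, siRNA 3 differed from siRNA 2 by -0.005 at 72 h (95% confidence interval -0.20 to 0.19, adjusted p = 0.998) and by -0.014 at 144 h (-0.21 to 0.18, adjusted p = 0.965) on the log2 scale. The interval therefore leaves room for a difference of about 0.2 in either direction. Across all genes, 0.141% differed between the siRNAs at 72 h and 0.331% at 144 h with an adjusted p under 0.05.

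**Figure D1:**
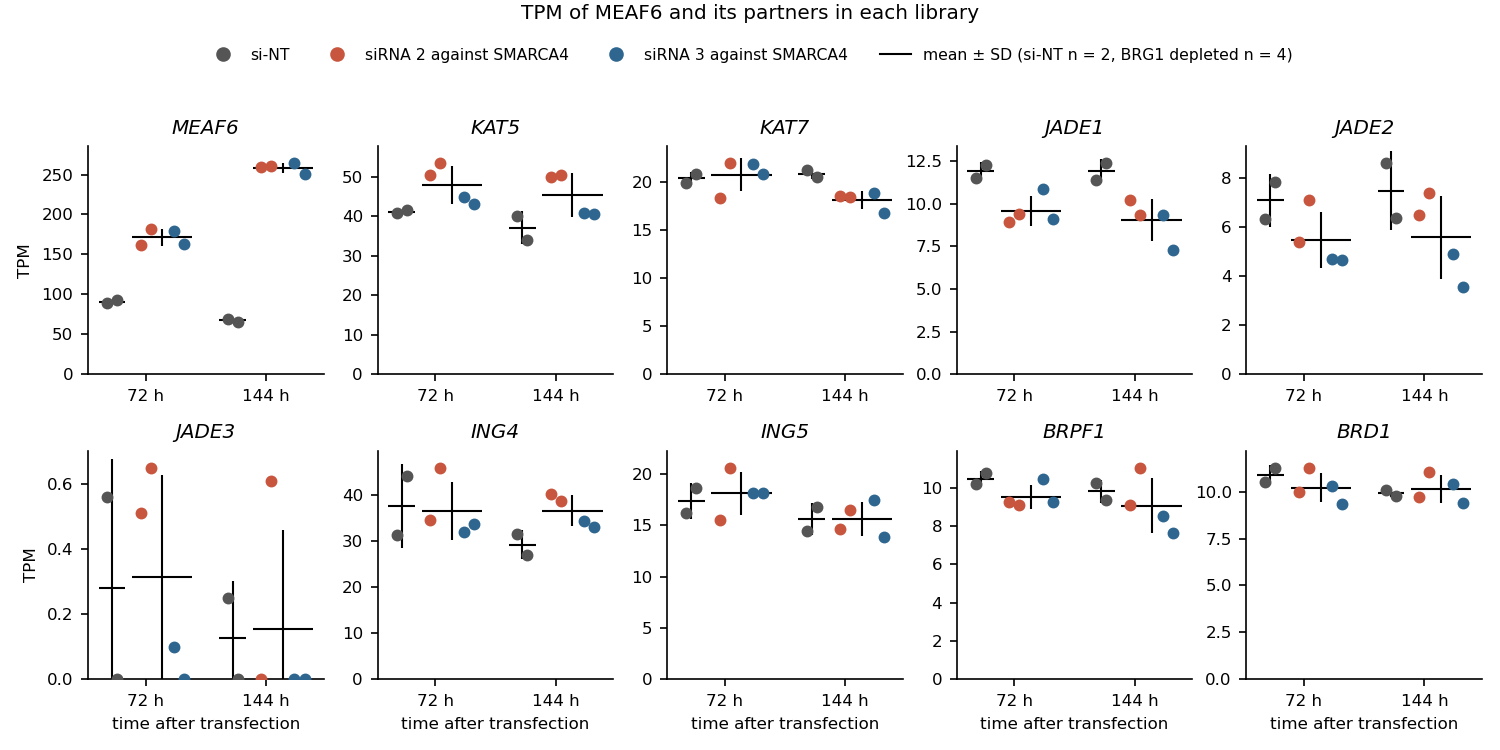
TPM of each of the 10 genes (y axis, from 0, its own scale in each panel) in the 12 libraries, at 72 h and 144 h, with 1 point per library coloured by siRNA; black lines are the mean ± SD of the 2 si-NT and the 4 BRG1 depleted libraries, and bars that would pass below 0 end there. MEAF6 has 4 separate groups between 65.84 and 264.54 TPM, whereas the points of BRPF1 and BRD1 lie within 7.61 to 11.29 TPM throughout.

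No partner passed the test of a change at either time point. Of the 9 partners, 8 passed the filter on low values and were tested with limma, with Benjamini-Hochberg adjustment over all 16337 genes, and JADE3 did not pass. At 72 h, 0 of 8 had an adjusted p under 0.05 (1 had an unadjusted p under 0.05), where 1.68% of all genes did, 1.13% being higher and 0.557% lower. At 144 h the count was again 0 of 8 (2 by unadjusted p), where 24.4% of all genes were called, 13.6% higher and 10.8% lower. The median log2 fold change of the 8 partners was -0.06 at both time points, against 0.06 and 0.03 over all genes, and the values ran from -0.33 to 0.21 at 72 h and from -0.39 to 0.31 at 144 h. With scaling to the median of ratios, KAT7 and JADE1 were called at 144 h, 2 of 8, with log2 fold changes of -0.22 and -0.40.

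The difference between the changes at 144 h and 72 h, which is the measure on which MEAF6 was chosen, was called for 0 of the 8 partners (0 by unadjusted p), and for 0.0184% of all genes. In the partners this difference ran from -0.21 for KAT7 to 0.35 for ING4, against 1.02 for MEAF6. The upper end of the 95% confidence interval was highest for ING4, at 0.86 (from -0.16). BRG1 depleted cells at 144 h were also compared with BRG1 depleted cells at 72 h, and 0 of 8 partners were called (1 by unadjusted p), with 4.27% of all genes called. In si-NT cells 0 of 8 partners differed between the time points (0 by unadjusted p), with 0% of all genes called.

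**Figure D2:**
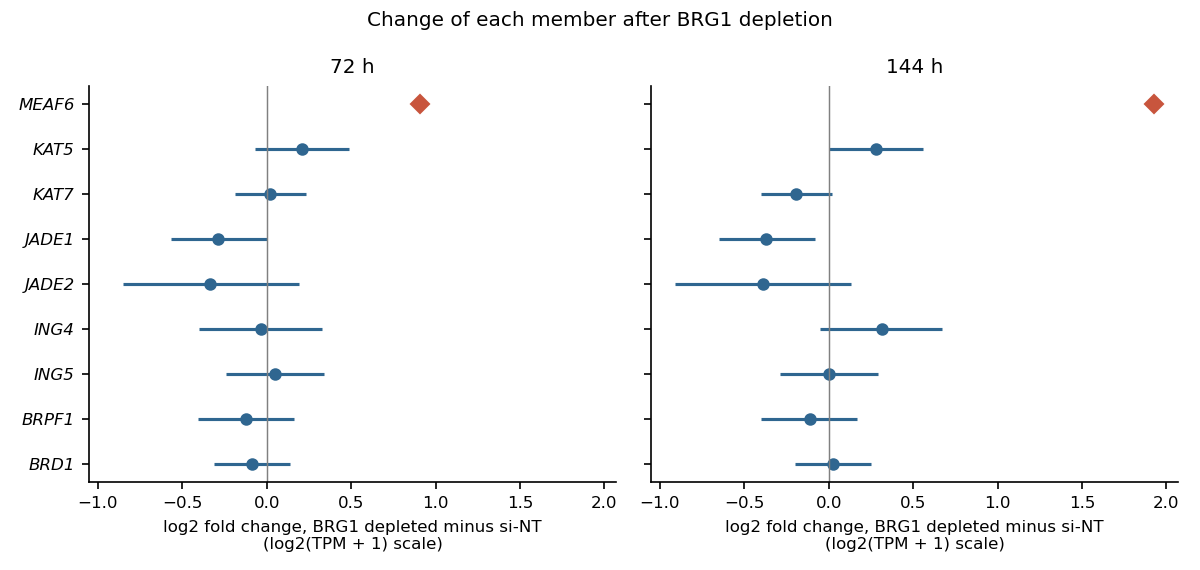
Log2 fold change of BRG1 depleted against si-NT cells on the log2(TPM + 1) scale (x axis) for MEAF6 and the 8 tested partners, at 72 h (left) and 144 h (right). Circles with lines are the limma estimates of the partners with 95% confidence intervals, and the diamond is MEAF6, shown with no interval because it was chosen on these values. MEAF6 stands at 0.91 and 1.93, and the partners lie between -0.39 and 0.31.

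KAT5, the TIP60 acetyltransferase, was the only tested partner with every BRG1 depleted value above the si-NT values at both time points, and its values differed by siRNA. At 72 h the si-NT libraries held 40.87 and 41.47 TPM of KAT5, siRNA 2 libraries 50.48 and 53.5, and siRNA 3 libraries 44.75 and 43.18. At 144 h the values were 40.17 and 34.11 TPM with si-NT, 49.94 and 50.4 with siRNA 2, and 40.76 and 40.58 with siRNA 3. Each BRG1 depleted value exceeded the si-NT values at the same time, by a narrow margin with siRNA 3, and all siRNA 2 libraries were above all siRNA 3 libraries.

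The log2 fold change of KAT5 was 0.21 ± 0.13 (SE) at 72 h (adjusted p = 0.494, limma) and 0.28 ± 0.13 at 144 h (adjusted p = 0.13). With siRNA 2 alone it was 0.43 at 144 h (95% confidence interval 0.21 to 0.64, adjusted p = 0.014) and with siRNA 3 alone 0.13 (-0.08 to 0.35, adjusted p = 0.363). The direct comparison of the siRNAs at 144 h gave -0.30 (-0.51 to -0.08), which did not pass adjustment (adjusted p = 0.247). With scaling to the ERCC spike-ins, the KAT5 value at 144 h was -0.11, against a median of -0.31 over all genes.

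KAT7, the HBO1 acetyltransferase, held its level more closely than KAT5 did. Its si-NT libraries were at 19.93 and 20.86 TPM at 72 h and 21.21 and 20.51 TPM at 144 h. With siRNA 2 it was at 18.32 and 21.99 TPM at 72 h and 18.59 and 18.42 TPM at 144 h, and with siRNA 3 at 21.88 and 20.83 TPM and then 18.81 and 16.75 TPM. The groups overlapped at 72 h, and at 144 h every BRG1 depleted value was lower than either si-NT value. The log2 fold change was 0.02 ± 0.10 (SE, adjusted p = 0.952) at 72 h and -0.19 ± 0.10 (adjusted p = 0.174) at 144 h. With scaling to the median of ratios, KAT7 was called lower at 144 h (adjusted p = 0.0459, limma).

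JADE1, a scaffold that directs KAT7 to histone H4, was lower in every BRG1 depleted library at both time points. It was at 11.51 and 12.27 TPM with si-NT at 72 h, 8.91 and 9.41 with siRNA 2, and 10.87 and 9.13 with siRNA 3. At 144 h it was at 11.39 and 12.39 TPM with si-NT, 10.23 and 9.31 with siRNA 2, and 9.31 and 7.28 with siRNA 3. The si-NT libraries did not overlap with the others at either time, and the lowest value of all was a siRNA 3 library at 144 h. The log2 fold change was -0.29 ± 0.13 (SE, adjusted p = 0.343, limma) at 72 h and -0.37 ± 0.13 (adjusted p = 0.0597) at 144 h, so that JADE1 came nearest of the 8 partners to a call. Without the first siRNA 2 library of 144 h the value was -0.43 with an adjusted p of 0.0463.

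JADE2, the second JADE scaffold, varied more between libraries. It was at 6.32 and 7.84 TPM with si-NT at 72 h and 8.6 and 6.34 TPM at 144 h. With siRNA 2 it was at 5.38 and 7.09 TPM and then 6.49 and 7.36 TPM, and with siRNA 3 at 4.7 and 4.63 TPM and then 4.88 and 3.57 TPM. The siRNA 2 libraries overlapped with si-NT, while the siRNA 3 libraries were below every other library at both time points. With siRNA 3 alone the log2 fold change at 144 h was -0.70 (95% confidence interval -1.14 to -0.26, adjusted p = 0.0349, limma), and with siRNA 2 alone -0.09 (-0.52 to 0.35, adjusted p = 0.796). The siRNAs differed by -0.61 (-1.05 to -0.17) at 144 h, with an adjusted p of 0.245.

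Fitted separately at 144 h, siRNA 2 gave 1 called partner of 8 (KAT5, higher) and siRNA 3 gave 2 (JADE1 at -0.48, adjusted p = 0.0399, and JADE2, lower), where 21.3% and 20.2% of all genes were called. At 72 h neither siRNA gave a called partner, with 1.57% of all genes called for siRNA 2 and 0.655% for siRNA 3. No partner was called with both siRNAs, and between the siRNAs 0 of 8 partners were called at 72 h (1 by unadjusted p) and 0 of 8 at 144 h (2 by unadjusted p).

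JADE3, the third JADE scaffold, was at 0 TPM in 6 of the 12 libraries and at 0.65 TPM at most, and no change can be read from it. ING4, a reader subunit of the HBO1 complexes, was at 31.24 and 44.17 TPM with si-NT at 72 h, within which range most of the BRG1 depleted libraries fell (32.1 to 45.97 TPM). At 144 h it was at 31.45 and 27.07 TPM with si-NT and at 33.16 to 40.17 TPM in BRG1 depleted cells, with no overlap. The log2 fold change of ING4 at 144 h was 0.31 ± 0.17 (SE, adjusted p = 0.196), with BRG1 depleted means of 36.6 TPM at both time points.

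ING5, a reader subunit shared by the HBO1, MOZ and MORF complexes, overlapped between groups at both times. It ranged from 13.83 to 20.61 TPM over the 12 libraries, with log2 fold changes of 0.05 (95% confidence interval -0.24 to 0.34) at 72 h and -0.001 (-0.29 to 0.29) at 144 h. BRPF1, a scaffold of MOZ, MORF and HBO1, ranged from 7.61 to 11.04 TPM, with log2 fold changes of -0.13 (-0.41 to 0.16) and -0.11 (-0.40 to 0.17). BRD1, the related scaffold, ranged from 9.37 to 11.29 TPM, with log2 fold changes of -0.09 (-0.31 to 0.14) and 0.03 (-0.20 to 0.25). For these 3 genes the intervals kept within 0.41 of 0 on either side.

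Counted by libraries rather than by test, 2 of the 8 tested partners had no overlap between BRG1 depleted and si-NT libraries at 72 h (KAT5 higher, JADE1 lower), where 23.3% of all genes had none. At 144 h there were 4 of 8 (KAT5 and ING4 higher, KAT7 and JADE1 lower), where 48.6% of all genes had none. These shares are near those of all genes, and the partners without overlap were split between higher and lower.

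The sum of the 9 partners was nearly level while MEAF6 was not. It averaged 157.3 ± 14.15 TPM in si-NT and 158.5 ± 14.21 TPM in BRG1 depleted cells at 72 h, and 142.1 ± 8.181 and 149.8 ± 14.21 TPM at 144 h (SD, n = 2 and n = 4). The sum joins shifts in both directions, none of them called, and the genes with high levels weigh most. At 144 h the means of KAT5 and ING4 differed from si-NT by 22.3% and 25.1%. Those of KAT7, JADE1, JADE2 and BRPF1 differed by -13.0%, -24.0%, -25.4% and -7.65%. In si-NT cells there was less MEAF6 mRNA than the sum of its partners, at a ratio of 0.605 and 0.552 at 72 h and 0.465 and 0.483 at 144 h. In BRG1 depleted cells the ratio was 1.01 to 1.17 at 72 h and 1.59 to 1.89 at 144 h, so that MEAF6 mRNA exceeded the sum of its partners in each of these libraries. At 144 h the ratio was 1.63 and 1.59 with siRNA 2 and 1.83 and 1.89 with siRNA 3.

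**Figure D3:**
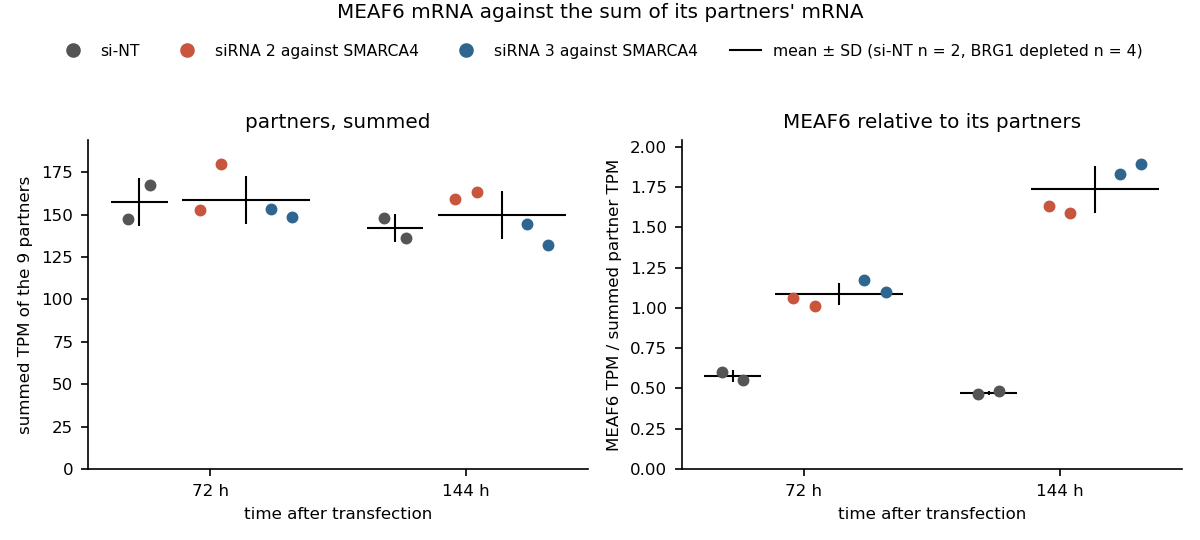
Left, summed TPM of the 9 partners in each library (y axis, from 0). Right, MEAF6 TPM divided by that sum (y axis, no unit). Points are libraries at 72 h and 144 h coloured by siRNA, and black lines are the mean ± SD of 2 si-NT and 4 BRG1 depleted libraries. The sums stay between 132.2 and 179.6 TPM, while the ratio is at most 0.605 in si-NT cells and at least 1.01 in BRG1 depleted cells.

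Of 5 tested genes near MEAF6 on the chromosome that are reported here, 2 were called higher in BRG1 depleted cells at 144 h. These were ZC3H12A and ZC3H12A-DT, where 13.6% of all genes were called higher. ZC3H12A, which encodes an RNase that degrades inflammatory mRNAs, ends 5616 bases from the 3′ end of MEAF6 on the opposite strand. It was at 17.94 and 35.76 TPM with si-NT at 72 h and 15.24 and 13.85 TPM at 144 h. With siRNA 2 it was at 57.91 and 116.65 TPM and then 79.13 and 82.9 TPM, and with siRNA 3 at 53.44 and 42.75 TPM and then 55.4 and 44.19 TPM. The groups did not overlap at either time, and the libraries of siRNA 2 were above those of siRNA 3. The log2 fold change of ZC3H12A was 1.27 ± 0.38 (SE, adjusted p = 0.14, limma) at 72 h and 2.05 ± 0.38 (adjusted p = 0.00323) at 144 h. The value at 72 h was 0.79 without the si-NT library of 17.94 TPM and 1.75 without that of 35.76 TPM, and it passed the test when the si-NT libraries of both times were pooled (1.65, adjusted p = 0.013).

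ZC3H12A-DT is a noncoding transcript that runs away from ZC3H12A, and its annotated start at 37940033 lies within the ZC3H12A upstream stretch printed above. It averaged 7.575 ± 3.13 TPM with si-NT and 16.77 ± 4.99 TPM in BRG1 depleted cells at 72 h, and 5.6 ± 0.396 and 23.08 ± 2.43 TPM at 144 h (SD, n = 2 and n = 4). All BRG1 depleted libraries were above both si-NT libraries at each time. Its log2 fold change was 1.06 ± 0.24 (SE, adjusted p = 0.0483) at 72 h and 1.86 ± 0.24 (adjusted p = 0.000433) at 144 h. The call at 72 h was lost when any 1 of the 12 libraries was left out, and also with ERCC scaling (0.89, adjusted p = 0.72), with no filter (adjusted p = 0.102), without the trend (adjusted p = 0.0586) and with only the libraries of 72 h in the fit (adjusted p = 0.235). Without the first si-NT library of 72 h the value was 0.68.

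None of the other 3 genes was called at either time point (limma). GNL2, a nucleolar GTPase gene 52050 bases away, was at 84.25 to 109.98 TPM over all libraries, with log2 fold changes of 0.18 at 72 h, where its groups did not overlap, and -0.05 at 144 h. MRPS15, a mitochondrial ribosomal protein gene 1025609 bases away on the other side, had log2 fold changes of 0.08 and -0.12. RPS27P9, a pseudogene that shares sequence with RPS27, was at 2.02 TPM at most. The difference between the changes at 144 h and 72 h was 0.78 for ZC3H12A (adjusted p = 0.583) and 0.80 for ZC3H12A-DT (adjusted p = 0.388), and neither passed the test. Without the first or the second si-NT library of 72 h it was 1.26 or 0.30 for ZC3H12A and 1.18 or 0.42 for ZC3H12A-DT. The microRNA gene MIR5581 inside MEAF6 and the pseudogene MEAF6P1 were listed at 0 TPM in every library.

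**Figure D4:**
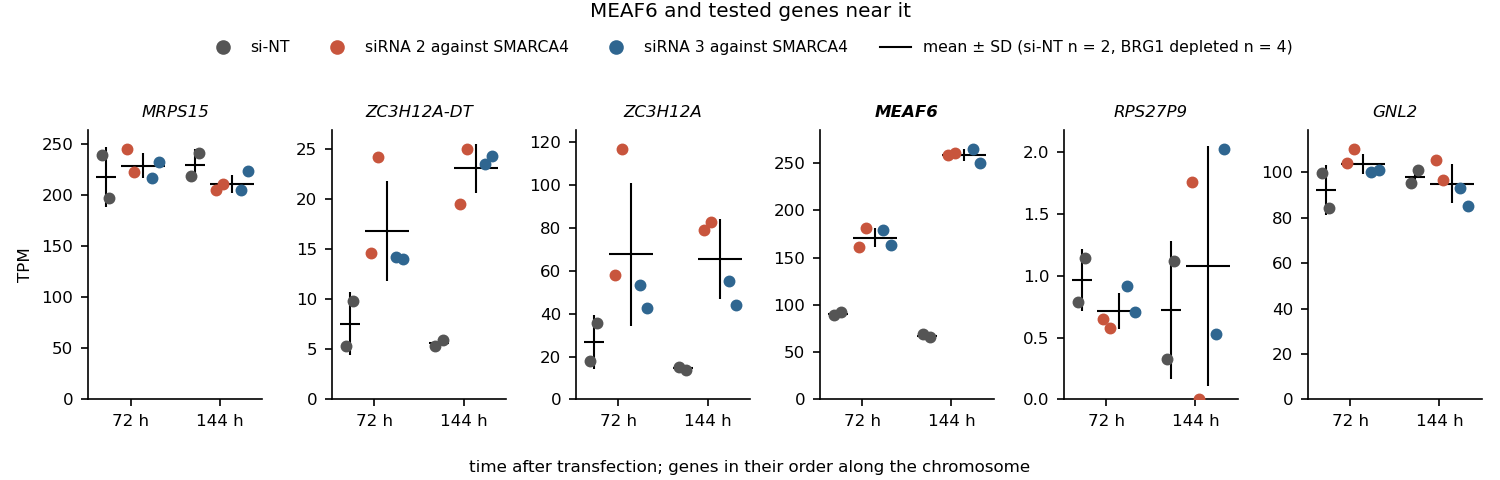
TPM (y axis, from 0, its own scale in each panel) of MEAF6 and 5 tested genes near it, in chromosomal order, in the 12 libraries at 72 h and 144 h. Points are coloured by siRNA and black lines are the mean ± SD of 2 si-NT and 4 BRG1 depleted libraries. BRG1 depleted libraries lie above si-NT libraries for ZC3H12A-DT, ZC3H12A and MEAF6 at both times, and for GNL2 at 72 h by a narrow margin, and mix with them elsewhere.

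Other subunits of the same complexes, and related genes outside these complexes, were examined as lists. The 6 lists held 16, 3, 12, 7, 17 and 15 tested genes. Rises and falls in them are differences of BRG1 depleted from si-NT cells at the same time point. At 72 h, 0 genes of any of the 6 lists were called with limma, near the share of 1.68% called among all genes. The TIP60 list held 16 other subunits, and at 144 h 0 of these rose and 7 fell, against 10.8% lower among all genes, with a median log2 fold change of -0.23. The largest falls were those of YEATS4 (-0.63, adjusted p = 0.0112), a reader of acetylated histones, ACTL6A (-0.52, adjusted p = 0.0111), an actin-related protein that BRG1 complexes also hold, and RUVBL2 (-0.47) and RUVBL1 (-0.46), a pair of AAA+ ATPases. MORF4L2 fell by 0.41 on the log2 scale, and MRGBP and BRD8 were the other two. This count was 0 with ERCC scaling, under which the median log2 fold change over all genes at 144 h was -0.31. It was also lower with either si-NT library of 144 h left out, where 1 control library remained.

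KAT6A, KAT6B and BRPF3 of the MOZ and MORF complexes gave 0 calls of 3 at 144 h, where 24.4% of all genes were called (13.6% higher, 10.8% lower). Of 12 genes of the KAT8 complexes, which are MYST complexes without MEAF6, 1 fell (KANSL2, -0.31, adjusted p = 0.0436), a share near the 10.8% of all genes. In this list 0 genes rose, where 13.6% of all genes did. Among 7 acetyltransferases outside the MYST family, KAT2B (PCAF) rose by 0.80 (adjusted p = 0.00639) and its paralogue KAT2A (GCN5) fell by 0.43 on the log2 scale (adjusted p = 0.0326).

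Deacetylases include the enzymes that remove the mark, though not all of those listed act on histones. They gave 3 rises and 2 falls among 17 tested of 18 listed, a share near the 24.4% called among all genes. HDAC11 rose by 0.98, SIRT2 by 0.69 and the mitochondrial SIRT3 by 0.44, whereas HDAC2 fell by 0.48 and SIRT5, also mitochondrial, fell by 0.57 on the log2 scale. Origin licensing factors, with which KAT7 works, gave 9 falls and 0 rises among 15, where 10.8% of all genes fell, with a median log2 fold change of -0.89 against 0.03 over all genes. In si-NT cells the genes with the largest falls were themselves higher at 144 h than at 72 h, by 0.39 (MCM7) to 0.52 (MCM2). None of these rises over time was called. The largest falls were those of CDC6 (-1.26), CDT1 (-1.21), ORC1 (-1.13), MCM2 (-1.10) and MCM7 (-0.99). This count was 3 without the second si-NT library of 144 h and 6 without the first.

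**Figure D5:**
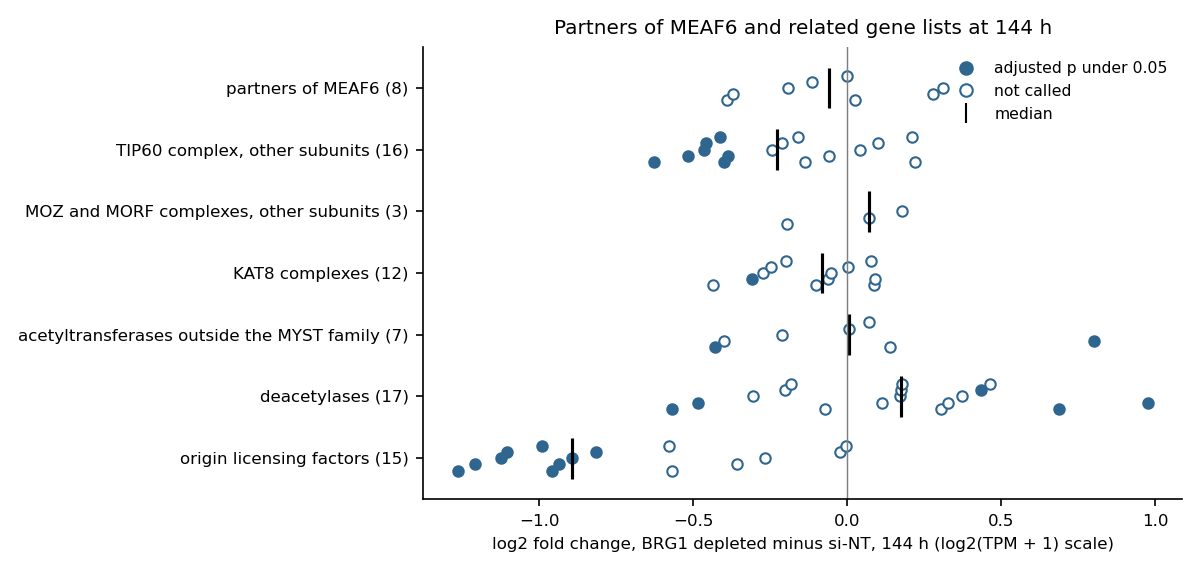
Log2 fold change of BRG1 depleted against si-NT cells at 144 h on the log2(TPM + 1) scale (x axis) for the 8 tested partners and 6 related lists, with the number of tested genes in parentheses. Each circle is a gene, filled where limma's adjusted p is under 0.05, and black bars are medians; the vertical spread within a row has no meaning. No partner is filled, and filled circles lie left of 0 for the TIP60 subunits and the origin licensing factors.

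As a description, the genes whose log2(TPM + 1) followed that of MEAF6 most closely over the 12 libraries were ZG16B (Pearson r = 0.99), SOCS2 (0.988), PITPNM2 (0.984), CCDC115 (0.983) and PTPN18 (0.981). The 12 libraries form 4 groups that carry most of this likeness. By Spearman correlation TGM2 was first (0.993), followed by SOCS2, SOCS2-AS1, TYMP and VAMP2 (0.986 each). With si-NT, TGM2 averaged only 0.675 and 0.38 TPM at 72 h and 144 h, and SOCS2-AS1 0.275 and 0.1 TPM. These 2 genes passed the filter on low values only through BRG1 depleted libraries, which favours a high place in this order. SOCS2, a suppressor of cytokine signalling, averaged 3.885 and 1.64 TPM with si-NT and 15.78 and 27.68 TPM in BRG1 depleted cells at 72 h and 144 h, and ZG16B, a secreted lectin-like protein, 97.02 and 83.48 TPM against 165.4 and 242.4 TPM. CCDC115 and PTPN18 are close neighbours of each other on chromosome 2.

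None of the partners was near MEAF6 in this order. KAT5 had a Pearson r of 0.604 with MEAF6 over the 12 libraries and ING4 of 0.409, while ING5 (-0.028) and BRD1 (-0.057) were near 0. BRPF1 (-0.416), JADE2 (-0.502), KAT7 (-0.541) and JADE1 (-0.77) had negative values. The nearby gene ZC3H12A, at 0.852, was closer to MEAF6 than any partner was. It still ranked only 1024th by Pearson and 1599th by Spearman correlation among the other tested genes.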

How the data were processed

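As the methods describe, the authors aligned paired-end reads of stranded, ERCC-spiked mRNA libraries to hg19 (GRCh37) with STAR (2.4.0j in the submitters' processing notes), counted them with featureCounts and determined TPM on GENCODE release 19. The deposited values are TPM. Strand settings in counting are not given in the sources used here. Symbols and positions were taken from GENCODE release 44 in its GRCh37 version, which named 55665 of 63568 genes (87.6%).

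From these, log2(TPM + 1) of the 16337 genes that reached 1 TPM in 2 or more libraries was fitted with limma 3.58.1 in R 4.3.3 (lmFit, eBayes with trend, Benjamini-Hochberg) in 4 groups, or in 6 for the single siRNAs. edgeR, the authors' tool, needs counts and was not used. Called means an adjusted p under 0.05. The fit was tested on simulated data. The changes planted there were larger than those of any partner, so the simulation does not show whether partner changes could be found. The log2(TPM + 1) scale understates changes of low genes.

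The members and lists were chosen with earlier results of these data known. The genes named are the 10 members, SMARCA4, tested genes near MEAF6 (3 on each side), at most 5 called genes per list with the largest change at 144 h, and the 5 genes most correlated with MEAF6. MRGBP and BRD8, the Spearman list, MIR5581 and MEAF6P1 were named in addition, after their values were seen. The marker PECAM1 was not analysed here, and some genes the rule names are not reported here. Alternatives were another pseudocount, other scalings and filters, the replicate number as a block, fits without trend or with fewer libraries, combined si-NT libraries, stricter limits, and each library left out in turn.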

Additional observations from a re-analysis of the deposited data

Results flagged for a closer look

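In 3 of 30 groups of 4 libraries 1 value lay far from the other three by Dixon's criterion, which chance gives in about 1 in 20 groups. The siRNA 2 replicate 2 library held 0.61 TPM of JADE3 at 144 h, where the other three held 0. BRPF1 was at 10.45 TPM in the siRNA 3 replicate 1 library at 72 h, against 9.09 to 9.25 TPM in the others. ZC3H12A-DT was at 24.24 TPM in the siRNA 2 replicate 2 library at 72 h, against 14.04 to 14.58 TPM, and the same library had the highest ZC3H12A level of all, at 116.65 TPM.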

How the results depend on the processing

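MEAF6 kept its direction under every alternative run, with a log2 fold change of 0.71 to 1.12 at 72 h and 1.53 to 1.96 at 144 h, the lowest with ERCC scaling. With ERCC scaling the median of all genes was -0.11 at 72 h and -0.31 at 144 h, against 0.06 and 0.03 as reported. Relative to that median, an alternative chosen after seeing the data, MEAF6 stood at 0.83 and 1.84. The count of partners called at 144 h, 0 of 8 as reported, was 2 with median-of-ratios scaling, 1 with the si-NT libraries of 72 h and 144 h pooled, 1 with siRNA 2 alone, 2 with siRNA 3 alone and 0 to 1 with a library left out (1 without the first siRNA 2 library of 144 h). At 72 h and for the difference between time points it stayed 0 in each alternative run. The replicate numbers did not pair the libraries (15 pairs of conditions, r of -0.23 to 0.30, 2 over 0.1). With the replicate block, 0 partners were called at either time point, and the calls of ZC3H12A and ZC3H12A-DT did not change. The counts of TIP60 subunits and licensing factors called lower at 144 h also stayed at 7 and 9. Block results for the other list genes and for partners called with a single siRNA are not reported here. The alternatives for ZC3H12A, ZC3H12A-DT and the list counts were chosen after seeing the data. Without a si-NT library, the lone control is assumed to vary like the other groups.

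Changes of sign touched only partner values that were not called, and their cause was not tested. With ERCC scaling, KAT5 was at -0.11 at 144 h and -0.13 for the difference between time points, KAT7 at -0.17 and ING5 at -0.14 at 72 h, ING4 at -0.08 and BRD1 at -0.34 at 144 h, and BRPF1 at -0.17 and BRD1 at -0.08 for the difference. Relative to the median of all genes under that scaling, KAT7 was at -0.05 and ING5 at -0.02 at 72 h and BRD1 at -0.03 at 144 h. With median-of-ratios scaling, KAT7 was at -0.04 and ING5 at -0.01 at 72 h and BRD1 at 0.00 at 144 h. With combined si-NT libraries, ING4 was at 0.13 at 72 h and BRD1 at -0.03 at 144 h. With 1 library left out, values at 72 h ran from -0.01 to 0.08 for KAT7, -0.28 to 0.21 for ING4 and -0.05 to 0.15 for ING5, and values at 144 h from -0.10 to 0.10 for ING5 and -0.01 to 0.06 for BRD1. The difference between time points then ran from -0.05 to 0.18 for KAT5, -0.14 to 0.01 for JADE1, -0.25 to 0.14 for JADE2, -0.15 to 0.05 for ING5 and -0.08 to 0.08 for BRPF1.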
